A study of Sus scrofa with 29 samples.

Results

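The genes described here are the heat shock proteins with their J-domain partners, nucleotide exchange factors, the cytosolic chaperonin and the folding machinery of the endoplasmic reticulum, as measured in the inner lining of 2 arteries of exercise-trained and sedentary pigs. They were found by symbol: the HSP genes other than HSP90AA1 and the proteoglycan HSPG2, the DNAJA, DNAJB and DNAJC genes, the chaperonin subunits CCT2 to CCT8 with TCP1, the numbered BAG genes, the PDIA genes, CALR, CANX and SERPINH1. This gave 61 genes on 103 probe sets, out of 6765 genes with a symbol of their own and 23999 tested probe sets. Each gene is represented by its probe set with the highest mean, and a value is the log2 intensity of that probe set on 1 array.

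The study ran 1 Affymetrix-type porcine array per artery from healthy pigs, 29 arrays in all from 15 pigs, 14 of which have both arteries. The 4 groups were the brachial artery of sedentary pigs (7 arrays) and of exercised pigs (7 arrays), and the internal mammary artery of sedentary pigs (7 arrays) and of exercised pigs (8 arrays). Exercised pigs trained on a treadmill for between 16 and 20 weeks, with bouts of 85 min on 5 days a week once full load was reached at week 10, and were killed about 24 h after their last bout, while sedentary pigs stayed confined to their enclosures. All pigs shared the same terminal handling, sedation with ketamine and Rompun and then deep anaesthesia with removal of the heart, and all arteries went through cold saline and a stabilising solution before the lumen was scraped into lysis reagent. The series text gives the pig with a single array a brachial one, whereas the labels give it an internal mammary one from an exercised pig, and the labels were followed.

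A scrape of the lumen is enriched for endothelium and is not a pure cell type. Of 13 measured endothelial markers, 10 lay at percentile 79.7 of all probe sets or above (PECAM1 at percentile 99.8, CDH5 at 98, NOS3 at 98), while VWF (54.5), FLT1 (55.3) and KDR (11.5) did not. Smooth muscle markers were also high (ACTA2 at percentile 99.6, TAGLN at 99.4). In such bulk material, fewer cells of a type and less RNA per cell cannot be told apart.

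Heat shock proteins bind proteins that are unfolded or still folding. HSP70 proteins hold such chains and let them go in a cycle driven by ATP, in which J-domain proteins deliver the client and start ATP hydrolysis while nucleotide exchange factors (HSP110, BAG proteins, HSPBP1) release it, and clients pass on to HSP90 or to the barrel-shaped chaperonin TRiC, which folds actin and tubulin. Many of the cytosolic genes are driven by the transcription factor HSF1 after heat or proteotoxic stress, and the endoplasmic reticulum set by the unfolded protein response. In endothelium, HSP90 is known to bind endothelial nitric oxide synthase and HSPB1 to act on the actin cytoskeleton.

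With training, the cytosolic HSP70 gene HSPA8 and the TRiC subunit CCT6A fell in each artery in the model with a random effect of pig. On average over the arteries HSPH1, HSP70.2, DNAJA1, TCP1, CCT4, HSPB1, DNAJC2 and HSPBP1 fell as well, and BAG5 rose. In the brachial artery 3 of the 61 genes were lower and 0 higher at a limma adjusted p under 0.05 (4.92% and 0%), where 0.887% of all 6765 genes were called lower, 1.76% higher, and 1.63% of probe sets in either direction. Unadjusted, 18 were lower and 4 higher. In the internal mammary artery 2 were lower and 0 higher (3.28% and 0%), where 0.148% of genes were called lower, 0.636% higher, and 0.596% of probe sets either way. Unadjusted, 13 were lower and 2 higher. Averaged over both arteries, which puts all 29 arrays in 1 contrast, 10 were lower and 1 higher (16.4% and 1.64%), where 2.88% of genes were called lower, 4.67% higher, and 4.68% of probe sets either way. With 1 value per pig and each artery fitted alone, in place of a random effect of pig, 2 passed in the brachial artery. These were HSPA8 and DNAJA1, while CCT6A and TCP1 did not pass (limma adjusted p = 0.0645 and 0.0651). In the internal mammary artery 0 passed (limma, 14 at an unadjusted p under 0.05), with adjusted p = 0.0564 for HSPA8 and 0.113 for CCT6A. On the mean of both arteries in each of the 14 pigs that have both, 3 passed.

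Of the 61 genes, 49 had a negative difference in the brachial artery (80.3%), 47 in the internal mammary artery (77%) and 46 on average (75.4%), against 46.3%, 50.4% and 47.9% of all genes. The median log2 difference of the 61 was -0.11, -0.10 and -0.11 in that order, and that of all genes 0.01, 0.00 and 0.01. Without the sedentary pig 12_3 the medians of the 61 were -0.10, -0.05 and -0.06. For the interaction, the test of whether training acted differently in the 2 arteries, 0 of 61 genes passed, as did 0% of all genes in either direction and 0% of probe sets. In limma's interaction test 1 of the 61 had an unadjusted p under 0.05, DNAJA4, which was lower with training by 0.19 on the log2 scale in the brachial artery and higher by 0.03 in the internal mammary artery without passing in either.

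**Figure D1:**
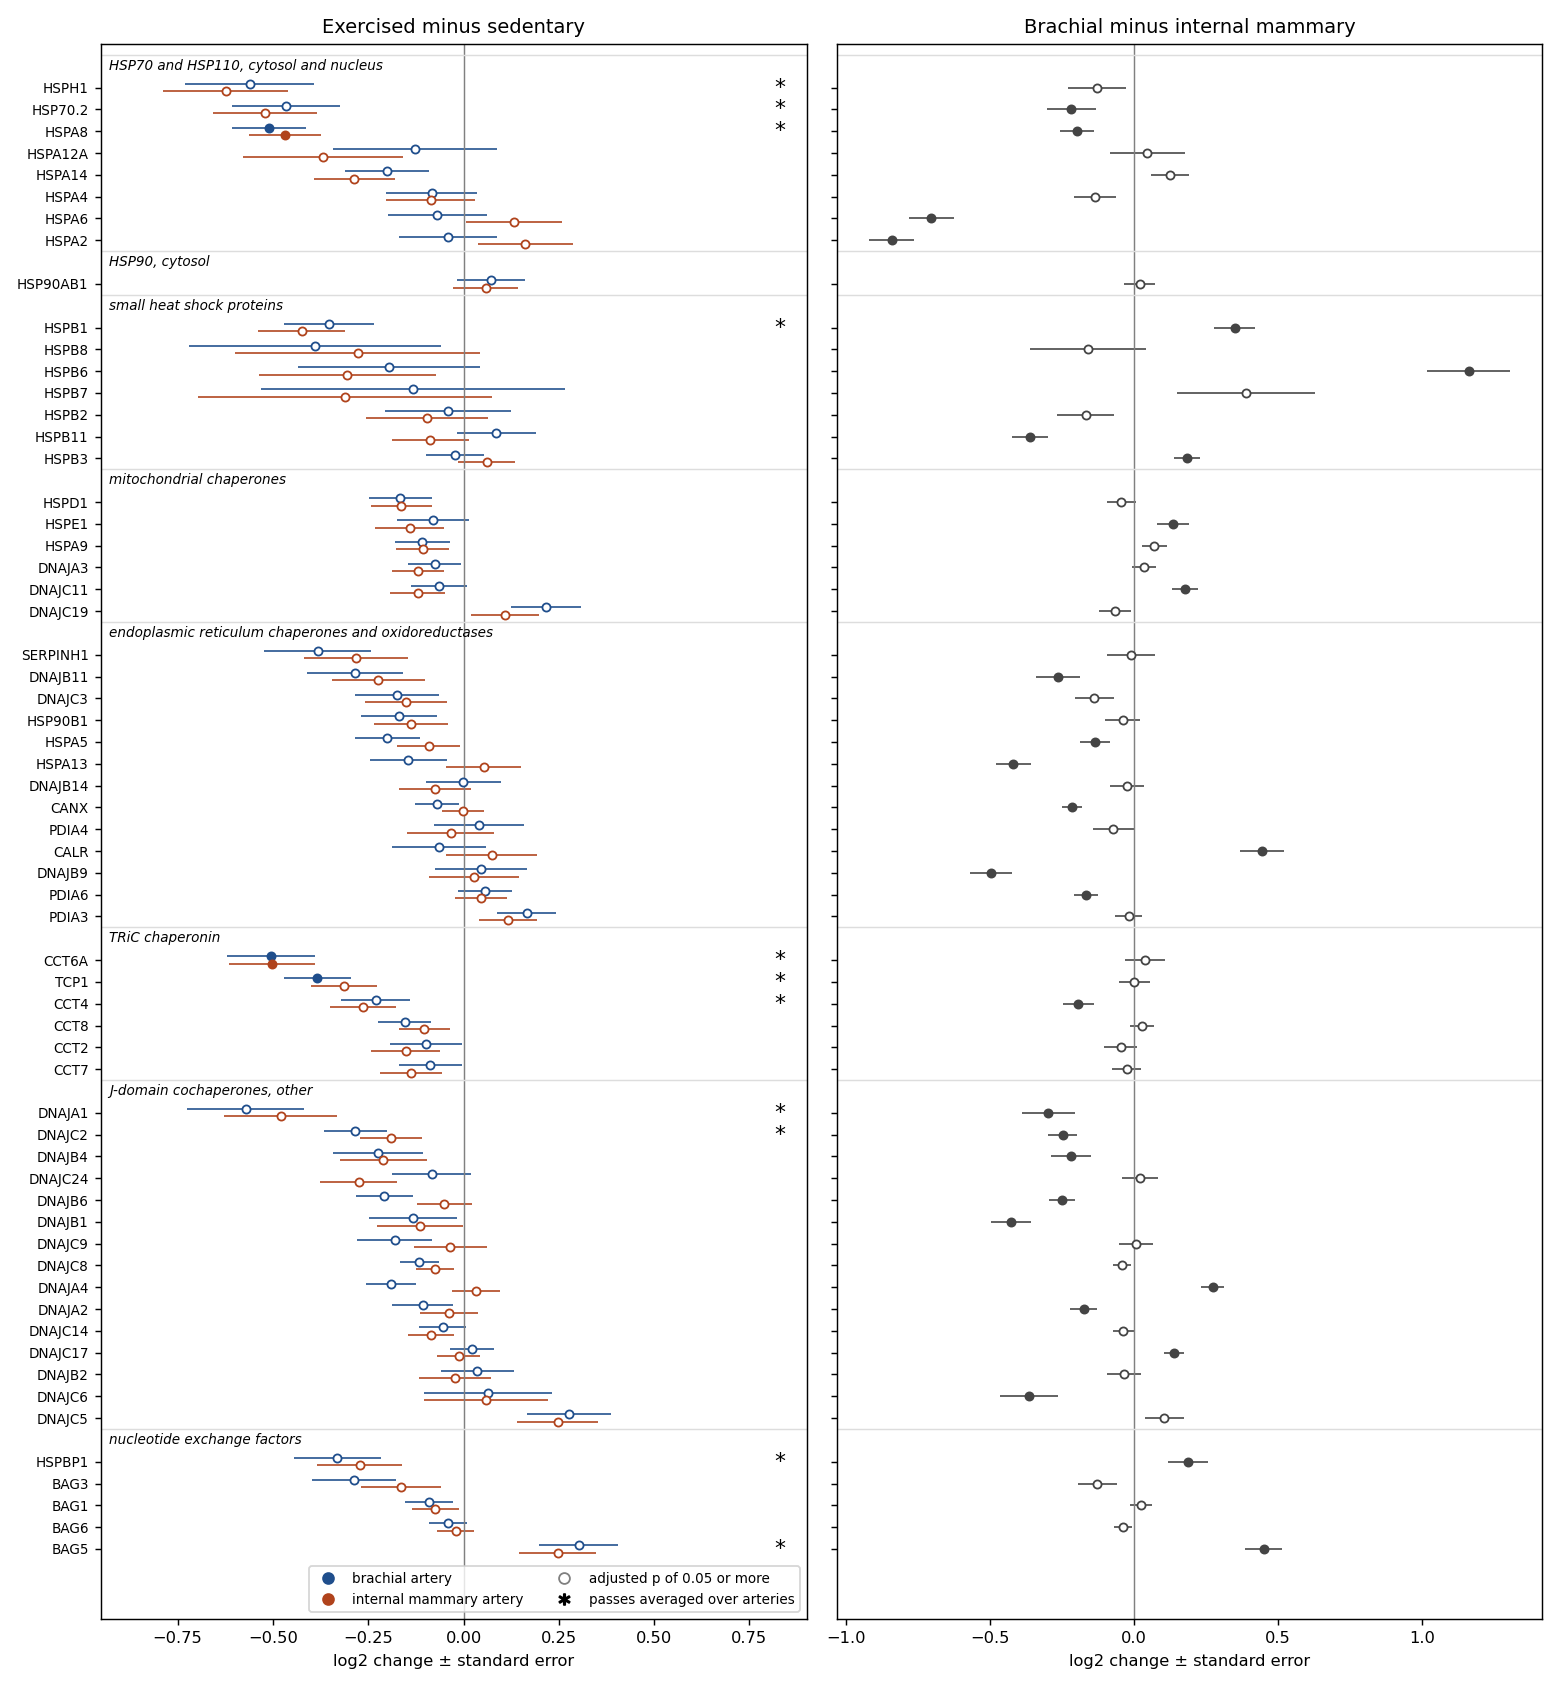
Log2 differences with their standard errors (x axes) for all 61 genes (rows, grouped by role), on the left for exercised minus sedentary in the brachial (blue) and internal mammary (red) artery and on the right for brachial minus internal mammary. Filled points have a limma adjusted p under 0.05 and asterisks mark the 11 genes that pass on average over arteries; most training differences lie left of 0, with 49 of 61 negative in the brachial artery.

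HSPA8, the constitutive HSP70 of the cytosol, was the member with the smallest p for the average. In the brachial artery its lowest, median and highest log2 intensities were 12.08, 12.36 and 12.74 in sedentary pigs and 11.68, 11.90 and 12.11 in exercised pigs. In the internal mammary artery they were 12.36, 12.60 and 12.95 in sedentary pigs and 11.93, 12.12 and 12.28 in exercised pigs. The mammary groups did not overlap, and the brachial groups overlapped by the single lowest sedentary array. The training difference of HSPA8 (exercised minus sedentary, log2 ± SE) was -0.51 ± 0.10 for the brachial artery (adjusted p = 0.00854), -0.47 ± 0.09 for the internal mammary artery (adjusted p = 0.0195) and -0.49 ± 0.08 on average (adjusted p = 0.000504, 1.40-fold lower). The other 3 probe sets of HSPA8 had means between 6.84 and 7.02 and differences of -0.21, -0.29 and -0.31 that did not pass.

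HSPH1 is the HSP110 that exchanges nucleotide on HSP70. Its brachial lowest, median and highest values were 9.86, 10.41 and 11.11 in sedentary pigs and 9.63, 9.72 and 10.16 in exercised pigs. Its mammary values were 10.21, 10.47 and 11.72 in sedentary pigs and 9.62, 10.03 and 10.14 in exercised pigs. The mammary groups did not overlap and the brachial groups did. HSPH1 fell by 0.59 ± 0.13 on average (difference -0.59, adjusted p = 0.00829, 1.51-fold lower), the widest training difference among the 61, and passed in neither artery alone (adjusted p = 0.08 and 0.067).

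HSP70.2 is the platform's name for a stress-inducible HSP70 of the pig. Its brachial values were 11.90, 11.99 and 12.75 (lowest, median, highest) in sedentary pigs and 11.41, 11.52 and 11.98 in exercised pigs. In the internal mammary artery they were 12.05, 12.21 and 13.30 in sedentary pigs and 11.57, 11.85 and 12.17 in exercised pigs. All 15 exercised arrays lay below the sedentary mean of their artery, with some overlap of the groups in both. HSP70.2 had a difference of -0.49 ± 0.11 on average (adjusted p = 0.00895), and its other 2 probe sets also fell (-0.53, adjusted p = 0.0039, and -0.70, adjusted p = 0.0102). Near-identical HSP70 copies may share these probes, so the 3 probe sets are not separate evidence for 1 gene.

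The other 5 HSP70-family genes did not pass. HSPA14 and HSPA12A had average differences of -0.24 and -0.25, HSPA4 -0.09, and HSPA6 and HSPA2 0.03 and 0.06. The chosen probe set of HSPA4 did not pass, while a second one fell by 0.33 (difference -0.33, adjusted p = 0.0204).

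**Figure D2:**
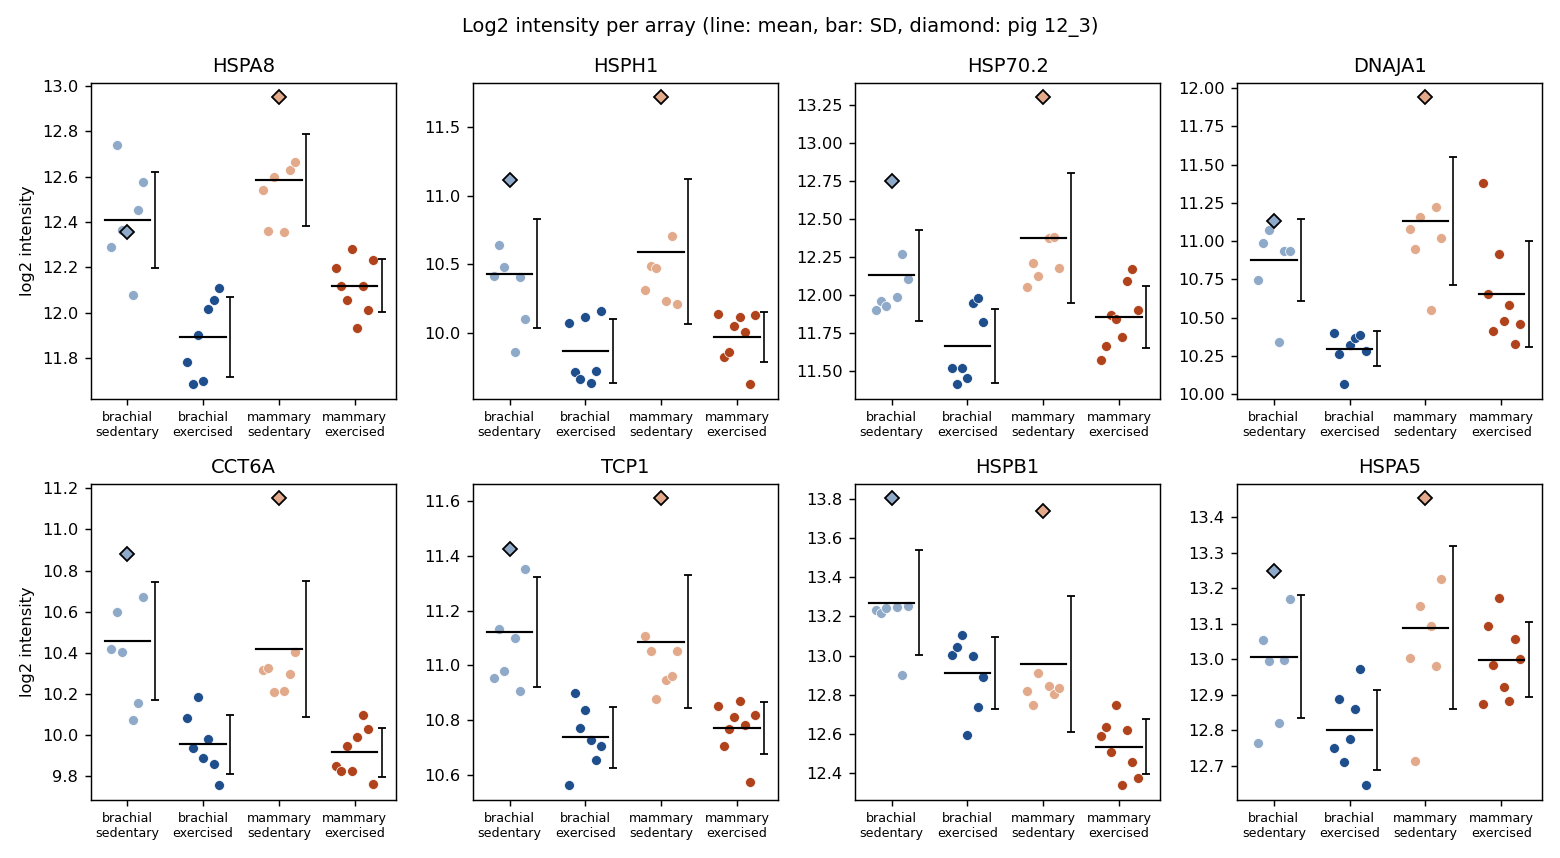
Log2 intensity of 8 genes on each of the 29 arrays (y axis) in the 4 groups (x axis), with a line at the group mean, a bar for its SD and a black-edged diamond for pig 12_3. The exercised arrays of HSPA8 in the internal mammary artery reach at most 12.28 and the sedentary ones start at 12.36, while HSPA5 overlaps widely.

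TRiC is a ring of 8 related subunits, of which 6 were measured, and all 6 had negative training differences in both arteries. On average 3 of these fell and 3 did not pass, where 2.88% of all genes were called lower. CCT6A had brachial values of 10.07, 10.42 and 10.88 (lowest, median, highest) in sedentary pigs and 9.75, 9.93 and 10.18 in exercised pigs. Its mammary values were 10.21, 10.31 and 11.15 in sedentary pigs and 9.76, 9.90 and 10.10 in exercised pigs, so that the mammary groups did not overlap. CCT6A fell in both arteries (brachial difference -0.51 ± 0.12, adjusted p = 0.0231, and mammary difference -0.50 ± 0.11, adjusted p = 0.033), and a second probe set also fell on average (-0.49, adjusted p = 0.00137). With 1 value per pig CCT6A passed in neither artery alone (limma adjusted p = 0.0645 and 0.113).

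TCP1, the subunit after which the complex is named, did not overlap in either artery. Its brachial values were 10.91, 11.10 and 11.43 in sedentary pigs and 10.56, 10.73 and 10.90 in exercised pigs. Its mammary values were 10.88, 11.05 and 11.61 in sedentary pigs and 10.58, 10.80 and 10.87 in exercised pigs. TCP1 fell in the brachial artery (-0.38 ± 0.09, adjusted p = 0.0243) and on average (-0.35 ± 0.07, adjusted p = 0.0039), and had a difference of -0.31 in the internal mammary artery (adjusted p = 0.0822).

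CCT4 fell on average (-0.25 ± 0.07, adjusted p = 0.04), with all 15 exercised arrays below the sedentary mean of their artery. CCT8, CCT2 and CCT7 had average differences of -0.13, -0.12 and -0.11 and did not pass. A list of 14 genes held prefoldin, which hands nascent chains to TRiC, the tubulin cofactors downstream of it, and also PDCL3 and TXNDC9. Of these, 11 were measured and 0 passed on average in limma, with 1 higher and 1 lower at an unadjusted p under 0.05. Their median difference was -0.01, with PFDN6 the lowest at -0.18 and PFDN1 the highest at 0.11. By artery the median was 0.06 in the brachial (8 of 11 positive, against 53.7% of all genes) and -0.06 in the internal mammary artery (8 of 11 negative, against 50.4%). All 11 interaction estimates were positive (54.6% of all genes), and 0 passed.

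Among the 15 J-domain proteins outside the mitochondrion and endoplasmic reticulum, 2 fell on average and 13 did not pass. Of all genes 2.88% were called lower on average. DNAJA1, the main type A partner of HSPA8, had brachial values of 10.34, 10.94 and 11.13 in sedentary pigs and 10.06, 10.32 and 10.40 in exercised pigs, overlapping by the lowest sedentary array. Its mammary values were 10.55, 11.08 and 11.94 in sedentary pigs and 10.33, 10.53 and 11.38 in exercised pigs, and these overlapped widely. DNAJA1 fell by 0.53 ± 0.12 on average (difference -0.53, adjusted p = 0.0099). DNAJC2, the ribosome-bound J protein that meets chains as they are made, fell by 0.24 ± 0.06 (difference -0.24, adjusted p = 0.0307), and its second probe set fell too (-0.28, adjusted p = 0.0122).

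DNAJB1, the type B partner that rises after heat shock in most cells, had a difference of only -0.12 (adjusted p = 0.502). DNAJC5, which carries HSP70 to vesicles, was among the few members with a positive difference (0.26 ± 0.09, adjusted p = 0.0755), with 6 of 7 brachial and 6 of 8 mammary exercised arrays above the sedentary mean. DNAJB6 did not pass on its chosen probe set (-0.13), whereas 1 of its other 3 fell (-0.30, adjusted p = 0.0273).

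The nucleotide exchange factors went both ways. HSPBP1, which frees nucleotide from HSP70, fell by 0.30 ± 0.09 on average (difference -0.30, adjusted p = 0.0462). BAG5 rose by 0.27 ± 0.08 (adjusted p = 0.048), the only member to do so. BAG5 values were 8.98, 9.18 and 9.48 in sedentary and 9.20, 9.37 and 9.88 in exercised brachial arteries, and 8.64, 8.77 and 8.96 against 8.83, 9.04 and 9.24 in the mammary arteries. Both pairs of groups overlapped, with 14 of 15 exercised arrays above the sedentary mean of their artery, and the other BAG5 probe set had a difference of 0.28 that did not pass (adjusted p = 0.0961). BAG3, the stress-inducible partner of small heat shock proteins, had a difference of -0.23 (adjusted p = 0.131), and BAG1 and BAG6 had differences of -0.08 and -0.03.

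Small heat shock proteins hold unfolding proteins without ATP. Among 7 HSPB genes, grouped here with this class by symbol alone, HSPB1 (HSP27) fell. Its brachial values were 12.90, 13.24 and 13.81 in sedentary pigs and 12.59, 13.00 and 13.10 in exercised pigs. Its mammary values were 12.75, 12.84 and 13.74 in sedentary pigs and 12.34, 12.55 and 12.75 in exercised pigs. The mammary groups met without crossing, and the brachial groups overlapped by the lowest sedentary array. HSPB1 had an average difference of -0.39 ± 0.09 (adjusted p = 0.0128, 1.31-fold lower).

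The other HSPB genes did not pass. The SD within groups was 0.72 for HSPB7, 0.65 for HSPB8 and 0.47 for HSPB6, the 3 widest among the 61, and 0.29 for HSPB2 and 0.25 for HSPB1, against a median of 0.20 over the 61 genes and 0.18 over all genes (HSPB7, HSPB8 and HSPB2 are named because of these values). These are proteins of striated and smooth muscle. With the mean of 12 smooth muscle markers in the model, the SD of HSPB7 dropped to 0.21, of HSPB8 to 0.51, of HSPB6 to 0.29 and of HSPB2 to 0.19, while that of HSPB1 stayed at 0.25. The exercised minus sedentary difference of the smooth muscle marker mean was -0.20 (brachial) and -0.28 (internal mammary), inside its spread (exact two-sided permutation p = 0.594 and 0.342). All 12 markers had a negative difference in both arteries, as had 46.3% (brachial) and 50.4% (internal mammary) of all genes, and 0 of the 12 passed.

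The single cytosolic HSP90 gene among the members, HSP90AB1, the constitutive HSP90, had a positive difference (0.07 ± 0.07, adjusted p = 0.673), with brachial medians of 12.57 and 12.67 and mammary medians of 12.56 and 12.66 in sedentary and exercised pigs. Its inducible counterpart HSP90AA1, which is no member, fell by 0.22 on average (difference -0.22, adjusted p = 0.0228). A list of 30 genes held regulators and partners of HSP70 and HSP90, but also HSP90AA1, TRAP1, CRYAB, CLPB and LONP1. Of these 30, 21 were measured and 19 had a negative average difference (90.5%, against 47.9% of all genes). The lowest was -0.69 and did not pass. Of all genes 2.88% were called lower on average and 4.67% higher. On average 3 fell, STIP1, which bridges HSP70 and HSP90 (-0.35, adjusted p = 0.0228), HSP90AA1, and the HSP90 prolyl isomerase PPID (-0.36, adjusted p = 0.0459), and TRAP1, the HSP90 of mitochondria, rose (0.26, adjusted p = 0.0225). FKBP4, another HSP90 isomerase, had a difference of -0.39 (adjusted p = 0.0641), and the transcription factors HSF1 and HSF2 had differences of -0.08 and -0.15 that did not pass.

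The mitochondrial and endoplasmic reticulum chaperones did not pass with training on the probe sets chosen. In mitochondria, where HSPD1 (HSP60) with its lid HSPE1 folds imported proteins, HSPD1 had an average difference of -0.16 ± 0.06 (adjusted p = 0.146), HSPE1 -0.11 and HSPA9, the HSP70 that pulls proteins in, -0.11. In the endoplasmic reticulum, 0 of 13 genes passed in limma, with 1 higher and 3 lower at an unadjusted p under 0.05. HSPA5 (BiP), its HSP70, had an average difference of -0.15 ± 0.07 (adjusted p = 0.227), HSP90B1 -0.15, CALR 0.00 and CANX -0.04.

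SERPINH1 (HSP47), the collagen-specific chaperone, had brachial values of 10.89, 11.59 and 11.69 in sedentary and 10.66, 11.02 and 11.27 in exercised pigs, and mammary values of 10.98, 11.27 and 12.10 against 10.77, 11.10 and 11.29. All 15 exercised arrays lay below the sedentary mean of their artery, yet the groups overlapped and the difference of -0.33 ± 0.11 did not pass (adjusted p = 0.0757). A second probe set of HSP90B1 fell (-0.33, adjusted p = 0.0314) where the chosen one did not pass. Of 39 further genes of the unfolded protein response and of folding in this compartment, 19 were measured. On average 1 of these fell, MANF, a secreted stress protein (-0.33, adjusted p = 0.0462), where 2.88% of all genes were called lower. The stress-induced factor DDIT3 had a positive difference (0.27, adjusted p = 0.0562). The cold-inducible RNA-binding genes CIRBP and RBM3 had differences of -0.08 and 0.20 and did not pass.

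Other quantities moved with training. The mean of 9 macrophage markers had an exercised minus sedentary difference of -0.54 in brachial arteries (range -0.65 to -0.12 against -0.31 to 0.80 around the mean of all arrays, 7 of 7 exercised arrays below the sedentary mean, exact two-sided permutation p = 0.00408, 0.019 after adjustment over 42 such tests) and of -0.08 in mammary arteries (exact permutation p = 0.596). All 9 markers had a negative brachial difference, and 3 of them passed. With that mean as a covariate 0 members passed in the brachial artery (HSPA8 -0.49, limma adjusted p = 0.137, and 9 members at an unadjusted p under 0.05), 2 in the internal mammary artery, and 3 on average, HSPA8 (-0.47, adjusted p = 0.00791), CCT6A (-0.42) and TCP1 (-0.29). The 28S/18S ratio of the labels, a measure of intact RNA, was higher in exercised than sedentary mammary arteries (1.33 ± 0.08 against 1.19 ± 0.08, SD, n = 8 and 7, exact permutation p = 0.00544, adjusted 0.0228), as was the poly(A) spike signal (3.15 against 3.07, exact permutation p = 0.00218, adjusted 0.0114). With the ratio as a covariate 11 members passed on average, with SERPINH1 (-0.38, limma adjusted p = 0.0439) in place of DNAJC2 (adjusted p = 0.054). The part of these quantities in the training differences was not tested beyond these fits.

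One sedentary pig, 12_3, stood apart in both arteries. It gave the highest of the sedentary mammary values for 42 of the 61 genes (68.9%, against 24.8% of all genes) and the highest brachial value for 35 (57.4%, against 24.1%). In its internal mammary artery HSP70.2 reached 13.30, HSPH1 11.72, CCT6A 11.15 and BAG3 12.28. Its HSPA8 was the highest in the mammary group (12.95) and in the middle of the brachial one. Without this pig 4 members passed in the brachial artery, 2 in the internal mammary artery and 7 on average (HSPA8, CCT6A, TCP1, HSPH1, HSP70.2, DNAJA1 and HSPB1), with average differences of -0.46 for HSPA8, -0.41 for CCT6A, -0.44 for HSPH1, -0.36 for HSP70.2 and -0.28 for TCP1. CCT4, DNAJC2, HSPBP1 and BAG5 no longer passed (adjusted p = 0.0733, 0.0725, 0.0881 and 0.094). Some differences that did not pass were also smaller without it, on average -0.09 for HSPD1, -0.02 for HSPE1, -0.05 for HSPA9, -0.08 for HSP90B1, -0.13 for BAG3, -0.02 for HSPA4, and -0.08, -0.05 and -0.06 for CCT8, CCT2 and CCT7. Others were larger without it, for example 0.15 for HSP90AB1 and -0.29 for HSPA12A. Of the listed genes that are no members, STIP1, PPID, HSP90AA1 and TRAP1 still passed and MANF did not (adjusted p = 0.0681).

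Some calls rested on single pigs. With each of the 15 pigs left out in turn, HSPA8, CCT6A, TCP1, HSPH1, HSP70.2, DNAJA1 and HSPB1 kept an average adjusted p under 0.05 in 15 of 15 fits, with HSPA8 between -0.54 and -0.46. These fits kept the random effect of pig. With 1 value per pig, HSPH1, HSP70.2, DNAJA1 and HSPB1 did not pass on average (limma adjusted p = 0.0875, 0.103, 0.053 and 0.091). BAG5 lost its call in 11 of the 15, CCT4 and HSPBP1 in 10 each and DNAJC2 in 6. For single arteries, HSPA8 lost its mammary call without pig 11_3 (adjusted p = 0.0508), TCP1 its brachial call without 17_1 (adjusted p = 0.0625), and CCT6A its brachial call in 4 fits (without 10_5, 12_5, 15_2 or 17_1) and its mammary call in 8.

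**Figure D3:**
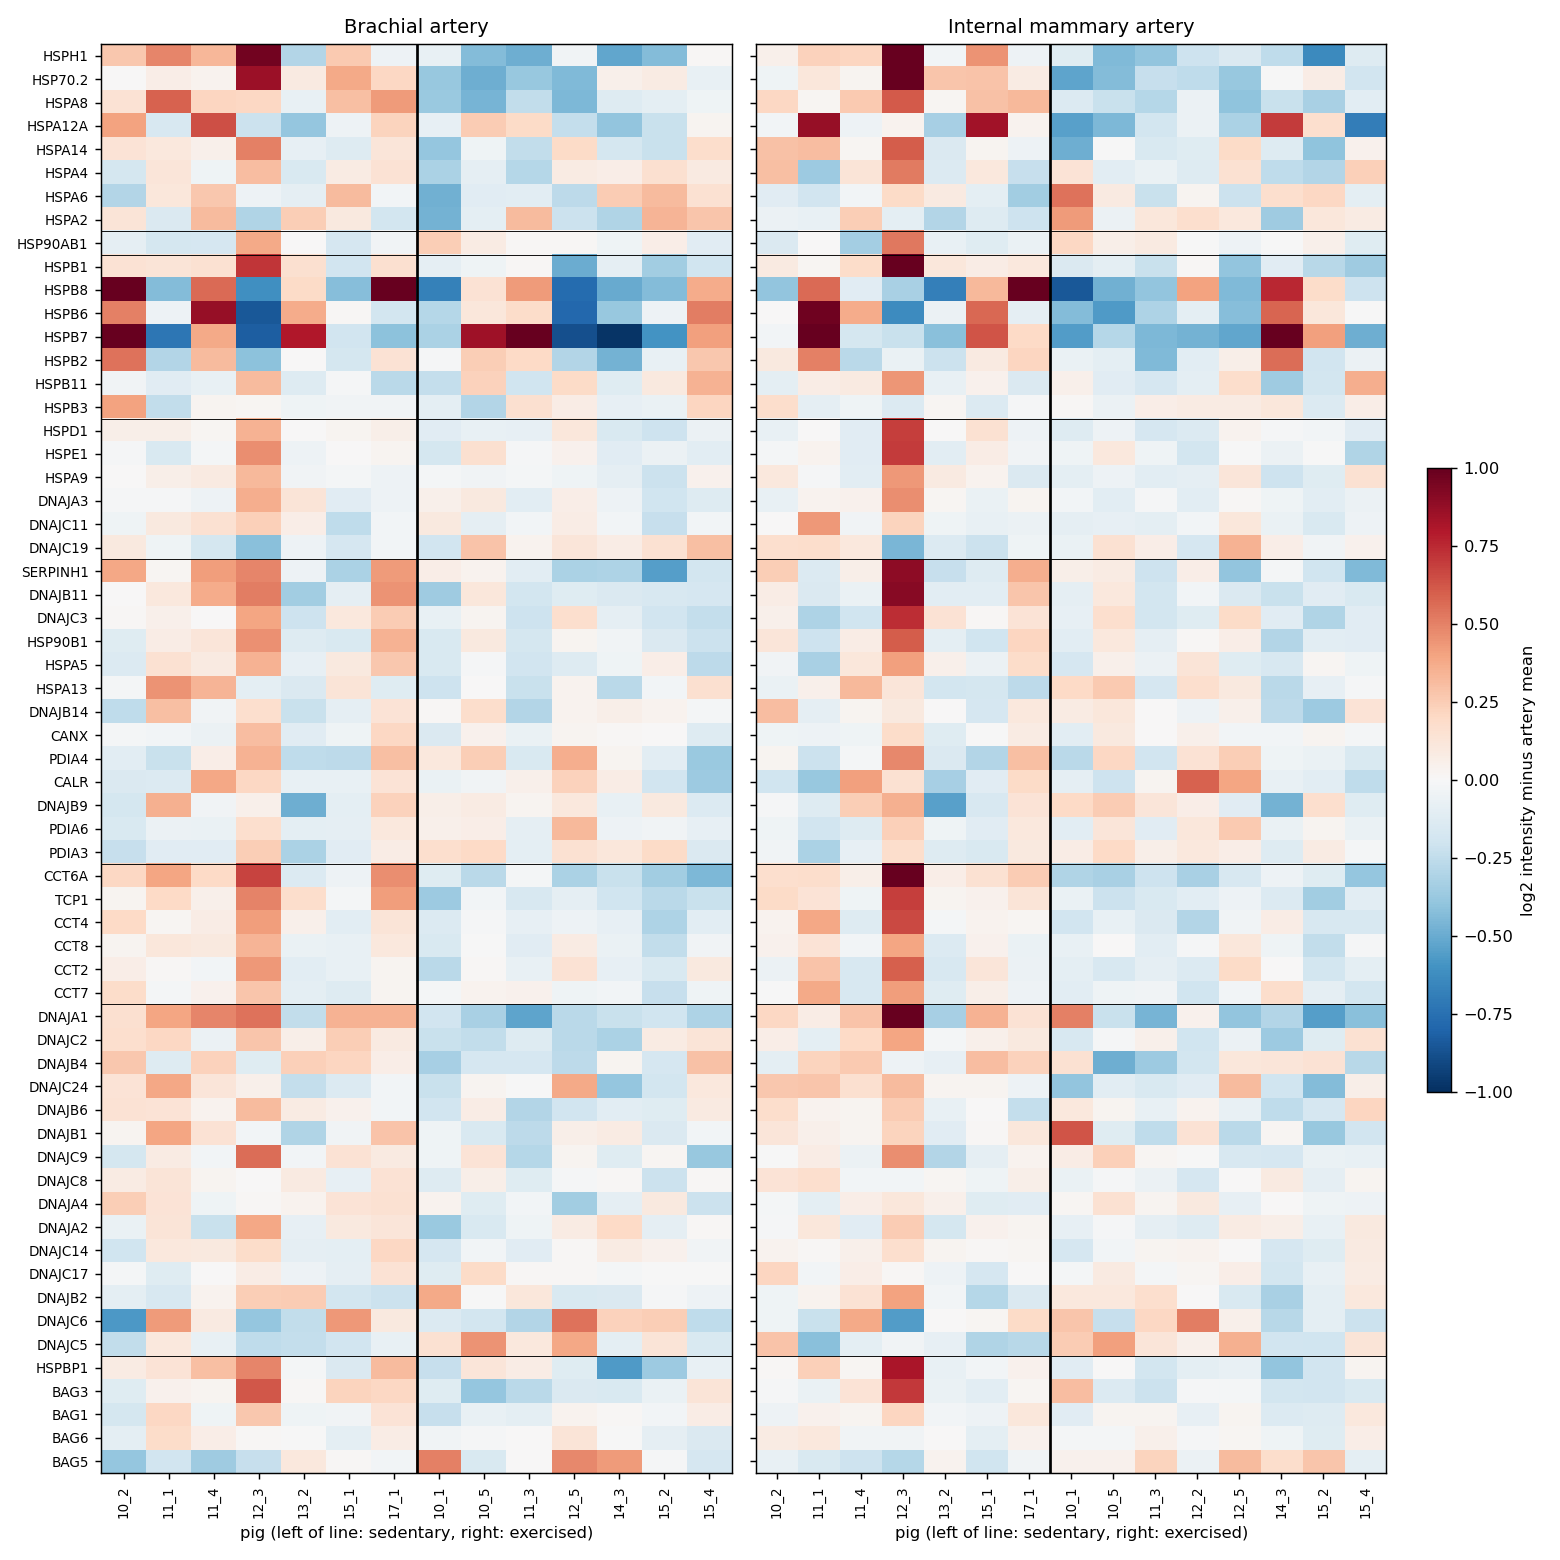
Deviation of each gene's log2 intensity from the mean of its artery's arrays (colour, limited to between -1 and 1), for 61 genes (rows, by role, each role ruled off) and all pigs (columns, sedentary left of the black line). Pig 12_3 is the highest sedentary pig for 42 of 61 genes in the internal mammary artery, and the rows of HSPB6, HSPB7 and HSPB8 vary from pig to pig in another pattern.

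The pigs were collected over time, and the first 8 (4 sedentary and 4 exercised, by the date in the labels) and the last 7 share no animal. Within the first 8 the average training difference was negative for 50 of 61 genes (median -0.15) and within the last 7 for 40 (median -0.04). It was negative in both periods for 38 of the 61 (62.3%), against 29.9% of all genes. HSPA8 had a negative difference in both (-0.55 ± 0.11, adjusted p = 0.0341, and -0.44 ± 0.10, adjusted p = 0.129), as were CCT6A (-0.57 and -0.38), DNAJA1 (-0.59 and -0.43), HSPB1 (-0.38 and -0.35) and TCP1 (-0.38 and -0.31). HSPH1 and HSP70.2 had larger differences in the first period (-0.81 and -0.67), which holds pig 12_3, than in the last (-0.32 and -0.33), a gap that was not tested. The genes named here were picked because they pass over all pigs, so a shared sign in the periods is no separate evidence. Within a period 0 members passed in either artery (limma, with 8 to 13 at an unadjusted p under 0.05). On average 2 passed in the first 8 pigs, HSPA8 and DNAJC24, and 0 in the last 7, where 10 had an unadjusted p under 0.05.

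**Figure D4:**
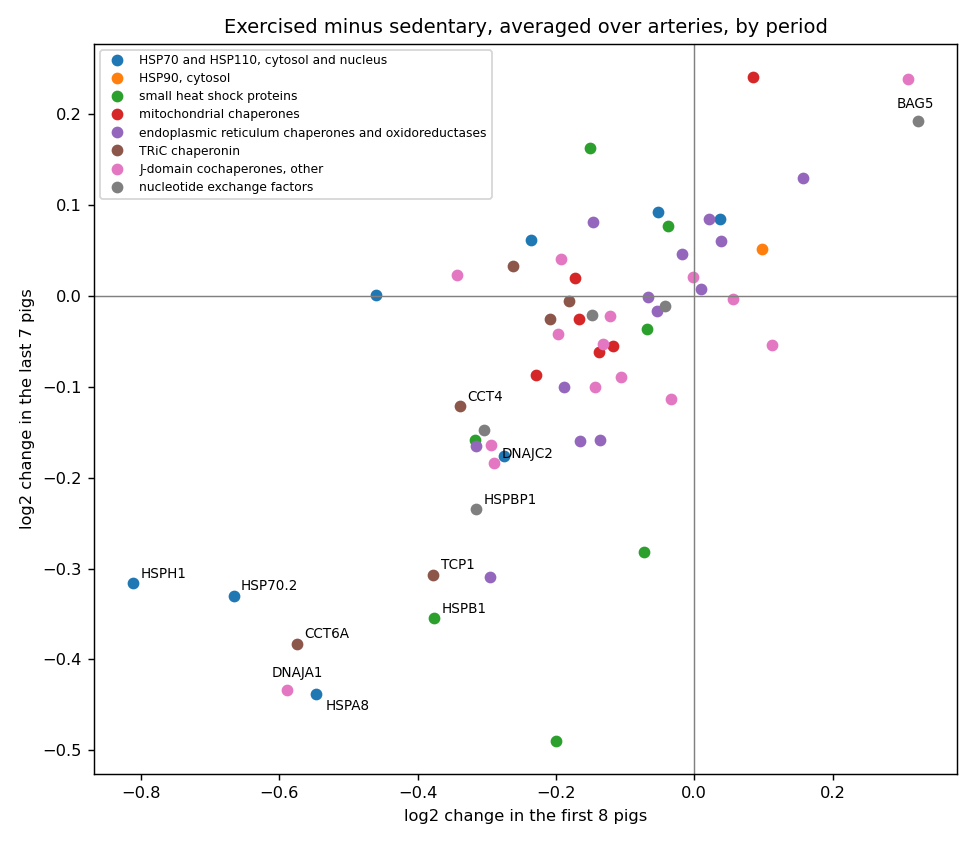
Average log2 difference, exercised minus sedentary, of the 61 genes in the first 8 pigs (x axis) and in the last 7 pigs (y axis), coloured by role, with the 11 genes that pass over all pigs named. These 11 keep their sign in both periods, for example HSPA8 at -0.55 and -0.44. They were chosen over all pigs, both periods included, so the shared sign is no separate evidence.

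Between the arteries the members differed widely and in both directions, 10 higher and 19 lower in the brachial artery (16.4% and 31.1%), where 30.4% of all genes were called higher, 21.2% lower, and 54.3% of probe sets in either direction. Their share was below that of all genes for higher calls and above it for lower ones. The median of the 61 was -0.04 and that of all genes 0.03. By role, 4 of the 8 cytosolic HSP70 genes, 6 of 13 endoplasmic reticulum genes and 7 of 15 J-domain genes were lower in the brachial artery. Of the 7 HSPB genes 3 were higher.

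HSPB6 (HSP20), a small heat shock protein of muscle that relaxes smooth muscle when phosphorylated, was higher in the brachial artery in 14 of 14 pigs. Its values were 10.09, 10.95 and 11.81 in sedentary and 10.15, 10.89 and 11.45 in exercised brachial arteries, against 9.14, 9.77 and 10.74 and 9.20, 9.56 and 10.35 in the mammary arteries. The brachial minus mammary difference was 1.16 ± 0.14 (adjusted p = 1.33e-07, 2.24-fold), and a second probe set gave 0.62. The smooth muscle marker mean differed by 0.42 in the same direction, inside its spread (exact sign-flip permutation p = 0.163). With that mean as a covariate the HSPB6 difference was 0.92 ± 0.08 (limma adjusted p = 1.04e-10).

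CALR, a calcium-binding lectin chaperone, was higher in the brachial artery in 14 of 14 pigs (0.44 ± 0.07, adjusted p = 1.43e-05), as was HSPB1 (0.35 ± 0.07, adjusted p = 0.00016). CALR values ran from 11.50 to 12.24 in brachial and from 11.05 to 12.02 in mammary arteries. BAG5 was higher by 0.45 in 14 of 14 pigs on its chosen probe set, while the other gave a difference of -1.04 (adjusted p = 5.62e-12), so no direction is given for the gene. DNAJA4 was higher by 0.27 ± 0.04 (adjusted p = 1.64e-06) in 12 of 14 pigs, and HSPE1 by 0.13 (adjusted p = 0.0459), a call that was lost in 11 of the 15 fits with a pig left out (highest adjusted p = 0.0861).

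HSPA2, an HSP70 best known from testis, was lower in the brachial artery in 14 of 14 pigs and without overlap. Its values were 9.18, 9.58 and 9.80 in sedentary and 9.01, 9.38 and 9.82 in exercised brachial arteries, against 10.04, 10.23 and 10.57 and 9.97, 10.44 and 10.76 in the mammary arteries. The difference was -0.84 ± 0.08 (adjusted p = 6.75e-10, 1.79-fold lower). HSPA6, a strictly stress-inducible HSP70 in humans, was likewise lower without overlap (-0.70 ± 0.08, adjusted p = 2.06e-08), with brachial values from 7.27 to 8.07 and mammary values from 8.11 to 9.00.

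Other HSP70 and J-domain genes were lower in the brachial artery by smaller amounts, DNAJB1 (-0.43, adjusted p = 9.26e-06), DNAJA1 (-0.30, adjusted p = 0.00805), HSP70.2 (-0.22, adjusted p = 0.0326) and HSPA8 (-0.20, adjusted p = 0.00518). HSPH1 and BAG3 had differences of -0.13 and -0.13 that did not pass (adjusted p = 0.296 and 0.106). HSP70.2 did not pass after the arrays were centred on their medians (adjusted p = 0.102), nor in 4 of the 15 fits with a pig left out. In the endoplasmic reticulum DNAJB9, a J protein that holds back the stress sensor IRE1, was lower by 0.50 ± 0.07 (difference -0.50, adjusted p = 1.98e-06) on all 3 of its probe sets, HSPA13 by 0.42 (difference -0.42, adjusted p = 1.99e-06) and HSPA5 by 0.14 (difference -0.14, adjusted p = 0.0259). HSPA5 did not pass after median centring either (adjusted p = 0.202), nor in 3 of the 15 fits with a pig left out. HSPB11 (-0.36), DNAJB6 (-0.25) and CANX (-0.22) were lower as well in 14 of 14 pigs, CANX with disagreement between probe sets (from -0.30 to 0.18 over its 6) and DNAJB6 likewise (from -0.63 to 0.25 over its 4). TCP1 and CCT6A, which fell with training, differed by 0.00 and 0.04 between arteries and did not pass.

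**Figure D5:**
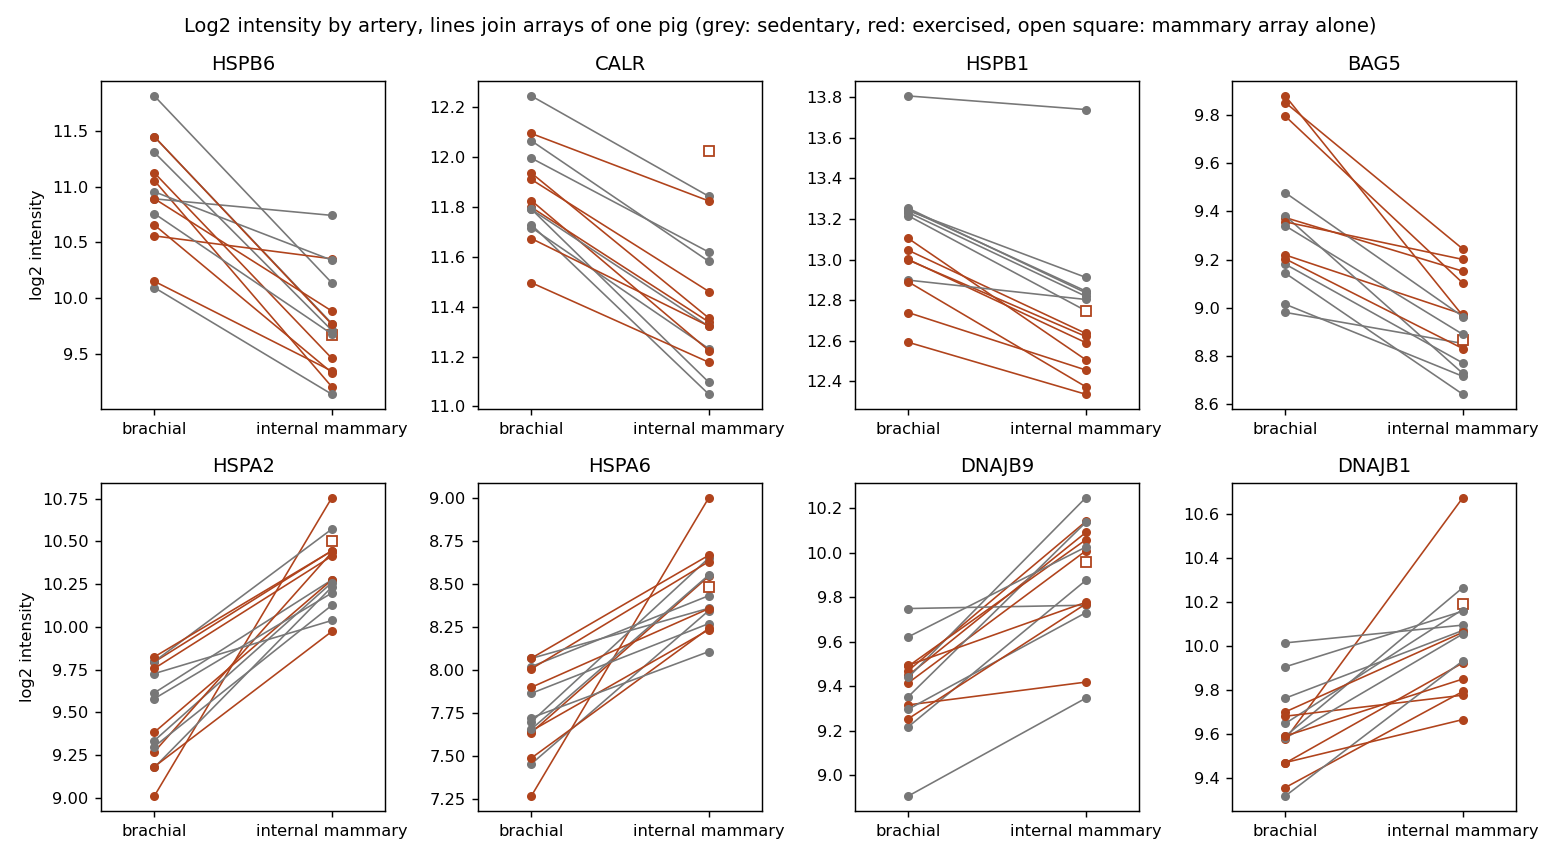
Log2 intensity (y axis) of 8 genes in the brachial and internal mammary artery (x axis), with lines joining the 2 arrays of each of 14 pigs, grey for sedentary and red for exercised, and an open square for the pig with a mammary array alone. On the probe sets plotted HSPB6, CALR, HSPB1 and BAG5 are higher and HSPA2, HSPA6, DNAJB9 and DNAJB1 lower in the brachial artery in 14 of 14 pigs; the other probe set of BAG5 gives -1.04.

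The arteries also differed in quantities of the arrays and the RNA. Hybridisation spikes were brighter on brachial arrays (11.48 against 10.85, no overlap), the 3' minus 5' actin signal, which grows as RNA is shortened, was larger (2.24 against 1.34, no overlap), the 28S rRNA probe set was dimmer (7.97 against 12.30) and the array median was lower in 14 of 14 pigs (difference -0.05). The 28S/18S ratio, by contrast, was higher in the brachial artery (1.40 against 1.26, higher in 11 and lower in 2 of 14 pigs, exact sign-flip permutation p = 0.00635, adjusted 0.0242). Fibroblast markers were higher on average in 13 of 14 pigs (difference 0.35, exact permutation p = 0.000244, adjusted 0.00146) and macrophage markers lower in 11 of 14 (difference -0.29, exact permutation p = 0.00806, adjusted 0.0282). The mean of 11 immediate early genes such as FOS and EGR1 was lower in the brachial artery in 14 of 14 pigs (difference -1.01, exact sign-flip permutation p = 0.000122, the smallest that 14 pairs allow, adjusted 0.000854). With the 3' minus 5' actin signal as a covariate 7 members passed between arteries in place of 29, 6 of them among the 29, and 4850 of 23999 probe sets did. The 7 were HSPB6 (1.63), HSPB7 (1.83), HSPB3 (0.39) and HSPE1 (0.41) higher and DNAJC6 (-0.96), HSPA5 (-0.39) and PDIA6 (-0.32) lower. In that fit CALR had a difference of 0.08 ± 0.18 (limma adjusted p = 0.804), BAG5 of 0.05 ± 0.15, HSPA2 of -0.44 ± 0.19 (adjusted p = 0.109), HSPA6 of -0.49 ± 0.21, DNAJB1 of -0.36 ± 0.19, DNAJB9 of -0.52 ± 0.20 and HSPB1 of 0.51 ± 0.19 (adjusted p = 0.052), and none of these passed. As this signal did not overlap between the arteries, artery and actin signal cannot be told apart. The part of the spikes, the rRNA probe set, the fibroblast markers and the immediate early genes in the artery differences was not tested. The probe sets of 1 gene disagreed mainly in this contrast: those of HSP90B1 gave -0.04 and -1.02, of HSPA9 0.07, 0.07 and -1.07, and of PDIA3 -0.02, -1.09 and 0.37.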

How the data were processed

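The authors deposited log2 probe set intensities of 29 arrays. Their summary, background correction and normalization are not given in the sources used here; affy is named, without a version, per the submitters' processing notes. Values ran from 1.97 to 14.8 and array medians from 7.13 to 7.28. No scanner files were used, so background per probe is unknown, and the number of arrays limits precision. Of 24123 probe sets, 124 controls were left out; of 23999 tested, 10069 had 1 gene symbol in GEO's platform annotation, 198 several and 13732 none, and only the first were named. Of the 61 member genes, 60 were found by Entrez identifier in the RefSeq gene table. No sequence or coordinate is given.

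Groups follow titles and treatment tags; for the 8 exercised mammary samples the source field says sedentary, against both. The model, fitted per probe set in limma (version 3.58.1, R 4.3.3), held a mean for each of 4 groups and a random effect of pig (duplicateCorrelation, consensus correlation 0.255), eBayes and Benjamini-Hochberg adjustment over all 23999, threshold 0.05. The labels state that both arteries came from the same animals; after removal of group means, arteries of 1 pig correlated with a median of 0.19, against -0.023 between pigs. The pig is the replicate. In this model the arrays of 1 pig are tied only by the consensus correlation, which is the same for every probe set. Its p-values therefore do not measure the spread between pigs alone, and fits with 1 value per pig are given beside them. Quality values and marker means were compared by exact permutation (two-sided) with adjustment over 42 tests. A fold is 2 to the power of the log2 difference.

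Alternatives were no pig block, a fixed pig block, median centring, quantile normalization, array weights, a trended robust prior, leaving out dim probe sets, another probe set per gene, collection period, each period alone, the 28S/18S ratio and the smooth muscle and macrophage means as covariates, and each pig left out; actin 3' minus 5' as covariate was added after seeing the data. The method was tested on simulated data. Genes named were those passing, up to 12 per contrast by p, per role the one with the highest mean and the one with the smallest training p, and a fixed set of classical chaperones; others are named beside these for their values. Members, lists and rule were chosen with earlier results of these data known. Plots used matplotlib 3.10.9 in Python 3.11.15.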

Additional observations from a re-analysis of the deposited data

Results flagged for a closer look

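Within groups, 120 pairs of a named gene and a group were examined for a single array far from the rest (Dixon's test at 95%), and 18 had one, where chance gives about 1 in 20. In 15 of the 18 the array was the highest one of the sedentary pig 12_3. In its internal mammary artery these were HSPB1 at 13.74, HSP70.2 at 13.30, HSP90AB1 at 13.17, HSPD1 at 12.61, HSPE1 at 12.47, BAG3 at 12.28, HSPH1 at 11.72, TCP1 at 11.61, CCT6A at 11.15, HSPB11 at 9.48 and HSPBP1 at 8.34. In its brachial artery they were HSPB1 at 13.81, HSP90AB1 at 13.03, HSPE1 at 12.37 and HSPD1 at 12.23. HSPE1, HSPD1 and HSP90AB1 did not pass with training, with or without this pig. The remaining 3 were in exercised pigs: BAG3 at 11.88 in the internal mammary artery of pig 10_1, CCT4 at 11.35 in the brachial artery of pig 15_2 and DNAJA1 at 10.06 in the brachial artery of pig 11_3, the last 2 being the lowest of their group. Pig 10_1 also had the highest exercised mammary values of DNAJB1 (10.67) and HSPA6 (9.00).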

How the results depend on the processing

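The counts of members that pass (brachial 3, internal mammary 2, average 11, artery 29) moved with some choices. Without a replicate block for pig they were 3, 2, 13 and 25, and with 1 value per pig 2, 0, 3 and 31. All 3 of the average calls with 1 value per pig (HSPA8, CCT6A, TCP1) are among the 11. The first 8 pigs alone gave 0, 0, 2 and 19, and the last 7 alone 0, 0, 0 and 20. The smooth muscle covariate gave 6 in the brachial artery, 4 in the internal mammary artery and 8 on average, the macrophage covariate 0, 2 and 3, and the actin covariate 6, 3 and 11, with 7 for the artery. Array weights gave 5 in the internal mammary artery, and the probe set with the largest variance 1. Leaving out 1 pig at a time gave 1 (without 17_1) to 5 (without 13_2) in the brachial artery, 0 (without 11_3) to 3 (without 10_2) in the internal mammary artery, 7 (without 10_1 or 12_3) to 12 on average and 26 to 31 for the artery. The interaction count was 0 under every one of these. Median centring or quantile normalization left the average count at 11. The artery difference reversed for BAG5 (-1.04) and CANX (0.18) on the probe set with the largest variance and for CCT4 (0.12, adjusted p = 0.559) with the actin covariate, and the members' artery median moved from -0.04 to 0.01 with median centring. Why the counts differ between settings was not tested. Each period holds fewer pigs, and the members' median average difference was -0.15 in the first 8 pigs and -0.04 in the last 7.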
